A study of Mus musculus with 12 samples.

Results

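Preparations of isolated heart muscle cells differ in how much transcript of blood vessel lining cells they carry, and 12 such preparations from dystrophic mice were compared here on that axis. The libraries were divided, whatever their treatment or genotype, into 5 chosen by their high TPM of 4 endothelial markers and the other 7. The markers were Kdr, the main receptor for VEGF-A, Emcn (endomucin, a surface glycoprotein), Cldn5 (claudin 5, a tight junction protein) and Cdh5 (VE-cadherin, the adherens junction protein of endothelium). Because measured transcript levels chose the sides, every difference in transcript level between them is given as a description, without a test.

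All animals carried mdx, the mutation of Dmd that removes dystrophin, and no library came from a wild type heart. Each genotype, mdx and mdx:Utrn+/-, was given either saline or PB1046, which makes 4 groups of 3 libraries. The mdx:Utrn+/- animals also lacked 1 copy of Utrn, which encodes utrophin, a relative of dystrophin. PB1046 is a long-acting analogue of vasoactive intestinal peptide; the labels call the dose high, and the protocol lists 0.75 and 1.5 mg/kg, given every other day from week 4 to week 12. Hearts were collected at week 14, and RNA came from frozen pellets of isolated cardiomyocytes. No label names the sex of an animal or the day of a preparation, and the field called batch only repeats the group. Separate animals are not stated for the replicates, so p-values measure the spread between these libraries. The 5 endothelial-rich libraries were replicates 2 and 3 under mdx saline, the same numbers under mdx PB1046, and mdx:Utrn+/- PB1046 replicate 2, always listed in that order. The 7 others were the rest of those groups and all of mdx:Utrn+/- saline.

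The heart wall holds a capillary beside nearly every myocyte, and endothelial cells, pericytes, fibroblasts and macrophages together outnumber the myocytes. Enzymatic dissociation followed by settling or spinning enriches the large rod-shaped myocytes and carries over a variable amount of the rest. Endothelial cells also signal to myocytes, and take up fatty acids for them from the blood. In bulk RNA, fewer cells of a type and less RNA per cell cannot be told apart.

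The 4 markers set the sides as follows, in TPM as deposited, a length-corrected share of each library's transcripts. Cdh5 stood at 72.5, 97.1, 90.1, 137.9 and 132.5 TPM in the 5 libraries and between 23.5 and 55.7 TPM in the 7, with a median of 28.7. Emcn stood at 70.7, 94.2, 85.1, 139.6 and 116.8 TPM against 22.8 to 53.6, with a median of 30.8. These 2 markers did not overlap between the sides. Kdr stood at 38.3, 56.4, 52.7, 62.0 and 99.8 TPM in the 5 and at up to 43.4 TPM in the 7, where mdx:Utrn+/- PB1046 replicate 3 was highest. Cldn5 stood at 23.4, 33.2, 44.3, 147.2 and 73.0 TPM in the 5 and between 8.6 and 43.3 TPM in the 7. Kdr and Cldn5 therefore overlapped. The boundary was narrow. On the log2 scale of scaled TPM, defined below, the mean of the 4 markers was 5.48 in mdx saline replicate 2, inside. It was 5.51 in mdx:Utrn+/- PB1046 replicate 3, outside. The scaling factors of these libraries were 1.06 and 0.916. In TPM as deposited, the summed markers were 205 and 174 in the same order. There mdx saline replicate 2 was higher for Emcn, Cldn5 and Cdh5 and lower for Kdr.

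**Figure D1:**
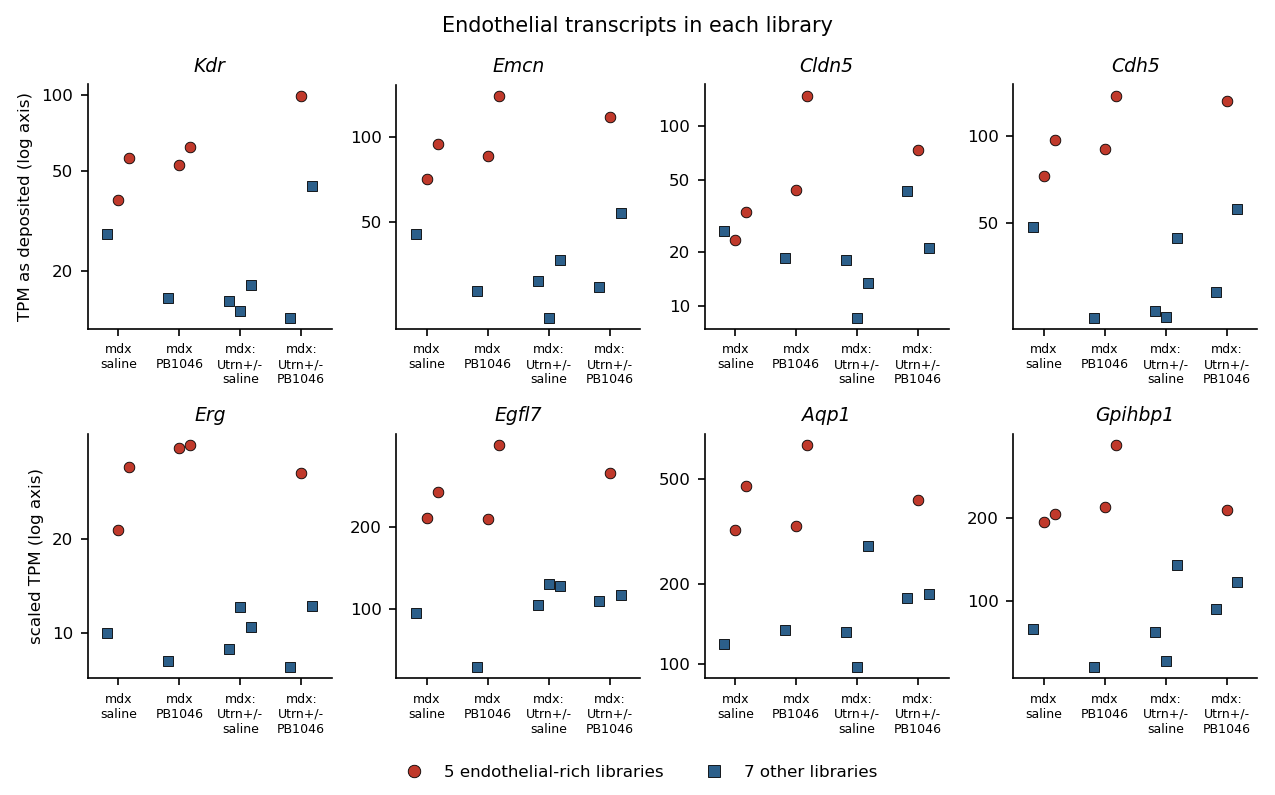
Levels of 8 endothelial transcripts in each library on log axes, by group; the upper row shows the 4 markers of the rule in TPM as deposited, the lower row Erg, Egfl7, Aqp1 and Gpihbp1 in scaled TPM. Circles are the 5 endothelial-rich libraries and squares the other 7; Kdr and Cldn5 overlap between the sides, the other 6 genes do not.

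The cardiomyocyte label held in every library. The 18 sarcomere genes listed made up between 120880 and 160340 TPM in total on either side, so myocyte RNA dominated the endothelial-rich preparations as well. The 27 endothelial genes, the markers of the rule included, summed to between 1297 and 2703 TPM in the 5 libraries and between 430 and 833 TPM in the 7. Depth overlapped between the sides: 11468009 to 19290414 reads were recovered from the values of the 5 libraries and 7234100 to 25458194 from those of the 7. The 5 libraries had 12089 to 12836 genes at 1 TPM or more, above the 11710 to 11973 of the 7. Rn45s, a ribosomal RNA locus, overlapped widely, since the 7 spanned 1039 to 42106 TPM and the 5 lay inside that span.

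Since TPM is a share of each library, levels below are given as scaled TPM, the deposited value divided by a trimmed-mean factor of the library. These factors lay between 1.02 and 1.32 for the 5 and between 0.842 and 0.972 for the 7, so they themselves followed the split. Differences are means of log2(scaled TPM + 1) in the 5 libraries minus the 7, a scale that understates low genes. Over the 12798 genes tested, which reached 1 TPM in 3 or more libraries, the median difference was -0.03 with scaling and 0.28 without it. A gene stood apart where the sides did not overlap and their means differed by at least 2-fold.

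The 200 genes that stood apart as higher in the 5 libraries made up 1.56% of all genes tested, and the 51 lower ones 0.398%. Without the fold requirement, the sides did not overlap for 741 higher genes (5.79%) and 920 lower genes (7.19%). Every count of list members without overlap given below is read beside these shares. Genes that stood apart have, by construction, the same sign within each of the 3 groups that held both sides, and 59.1% of all genes tested had it. Scaling moved the balance strongly: 79.7% of the genes that stood apart were higher with it and 99.5% without it, when 585 were higher and 3 lower. Of the 200 higher and 51 lower genes, 200 and 3 stood apart both with and without scaling. The count of lower genes also turned on single libraries, since it was 77 without mdx PB1046 replicate 3 and 96 without mdx:Utrn+/- saline replicate 3.

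Abundance followed the split as well. The median difference was 0.12 among the 2544 genes below 3 TPM and 0.09 among the 3624 between 3 and 10 TPM. It was -0.06 from 10 to 30 TPM, -0.26 from 30 to 100 TPM and -0.40 from 100 to 1000 TPM. The 149 genes above 1000 TPM, most abundant of all, had a median of -0.45. Spearman's rho between difference and mean level over all genes tested was -0.39, and that with exon length was 0.18. Genes share the same 12 libraries and are not independent, so these are descriptions. The medians of the myocyte lists below are therefore to be read beside these class medians. Members above the median of their own level class numbered 8 of 18 for the sarcomere and 4 of 16 for calcium handling. For ion channels they were 4 of 14, for the intercalated disc 4 of 12 and for cardiac transcription factors 2 of 14. Glycolysis had 7 of 23.

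**Figure D2:**
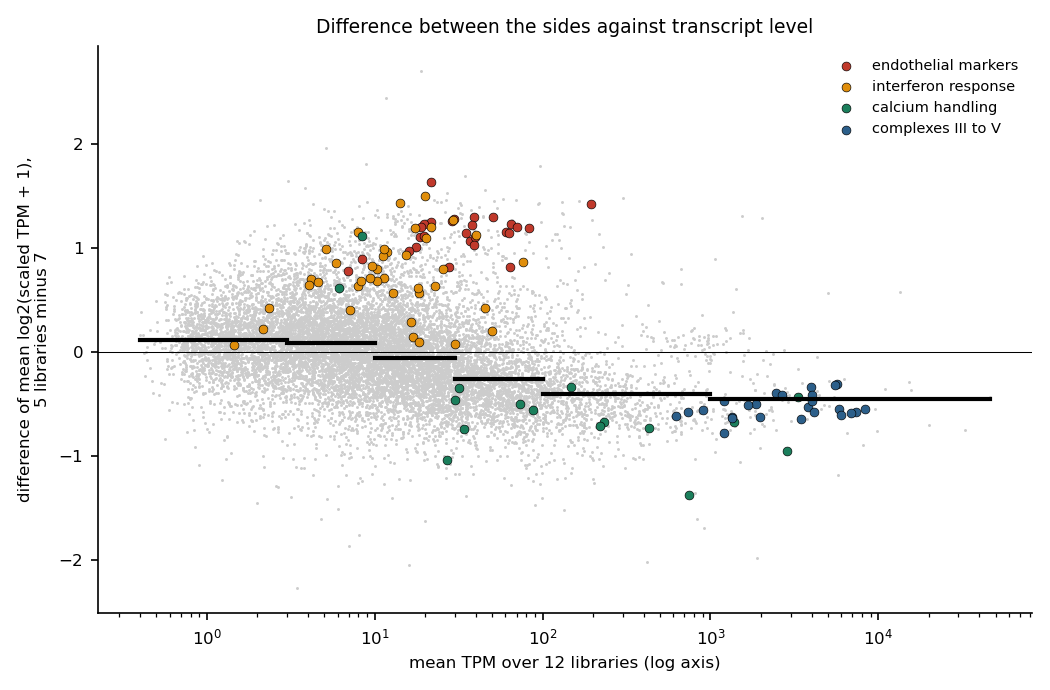
Difference between the 5 and the 7 libraries (log2 scale, vertical) against mean TPM over the 12 libraries (log axis, horizontal) for each gene tested in grey. Black bars are medians of 6 level classes, from 0.12 below 3 TPM to -0.45 above 1000 TPM. All 27 endothelial genes and 39 of 40 interferon genes, Mx1 excepted, lie above the bars of their classes, complexes III to V near theirs. The endothelial genes include the markers that chose the sides.

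Endothelial transcripts beyond the rule followed the 4 markers. All 27 endothelial genes tested, of 28 listed and 27 in the table, were higher in the 5 libraries. These 27 include the 4 markers that chose the sides. Of the 27 genes, 19 did not overlap and 18 stood apart, with Emcn and Cdh5 of the rule in both counts. The median difference of the 27 genes was 1.16 with scaling and 1.52 without, the 4 markers included. Erg, an ETS transcription factor that maintains endothelial identity (mm10, chr16:95360204-95530365), stood at 21.3, 34.1, 38.9, 40.0 and 32.6 scaled TPM in the 5 libraries. In the 7 it ranged from 7.79 to 12.2 (median 9.97) scaled TPM, so the lowest of the 5 exceeded all of the 7, by 3.11-fold between means. Egfl7, which endothelial cells secrete into their matrix (mm10, chr2:26581056-26592682), was the most abundant, at 217, 269.6, 214, 403 and 316 scaled TPM. Its range in the 7 was from 61.4 to 124 (median 107), a difference of 1.43 with a pooled SD of 0.36. Within mdx saline, mdx PB1046 and mdx:Utrn+/- PB1046 its differences were 1.31, 2.24 and 1.52. Robo4, an endothelial guidance receptor, S1pr1, the receptor for sphingosine 1-phosphate that stabilises junctions, and Rasip1, needed for vessel lumens, had differences of 1.26, 1.30 and 1.28 without overlap.

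Capillary genes gave a median of 1.13, with 12 of 14 higher and 10 standing apart as higher. Aqp1, the water channel of capillary endothelium, stood at 320.3, 471, 333, 673 and 418 scaled TPM in the 5 libraries and from 97.6 to 278 (median 134) in the 7. Fabp4, a fatty acid carrier of capillaries, reached 1870.1, 2724, 2534, 4146 and 3022 scaled TPM against 731 to 1429 (median 1234). Both genes separated the sides in every library. Gpihbp1 and Meox2, the latter a homeobox factor of heart endothelium, had differences of 1.45 and 1.47. Lpl, lipoprotein lipase, went the other way. It was 3403, 3724, 2502, 4376 and 2936 scaled TPM in the 5 libraries and from 5034 to 11340 (median 7649.5) in the 7, a difference of -1.18 (mm10, chr8:68880555-68906932). Without scaling the difference of Lpl was -0.82, and in TPM as deposited its sides overlapped. The enzyme is made mainly by myocytes and carried by Gpihbp1 to the capillary surface. Mean differences of enzyme and carrier had opposite signs.

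Other vessel segments followed less far. The 11 arterial genes were all higher, with a median of 0.60. Without overlap were 4 of them, beside 5.79% of all genes, and 1 stood apart. That gene was Dll4, a Notch ligand of arteries and sprouting tips, at 16.1, 23.7, 16.7, 21.0 and 20.9 scaled TPM against 5.30 to 10.8 (median 7.29). Of 5 venous genes 4 were higher; Ephb4, the venous ephrin receptor, did not overlap at 0.67, and Lrg1, a secreted glycoprotein, did not overlap in the other direction at -0.87. Endocardial genes had no member without overlap among 6 and a median of 0.24. Of 7 lymphatic genes only Flt4, the receptor for VEGF-C, did not overlap, with a difference of 0.65. The difference between these medians and the capillary one was not tested.

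Ligands and receptors of the vessel wall showed the same side. Pdgfb, which endothelial cells release to recruit pericytes, was 28.9, 36.7, 48.5, 71.0 and 48.4 scaled TPM against 11.9 to 23.9 (median 17.6). In the VEGF and angiopoietin list 9 of 12 genes were higher and 3 did not overlap: Pdgfb and Nrp2 were higher, and Vegfb, a heart-expressed VEGF relative named here after its value was seen, was lower at -0.56. Angpt1, a Tie2 ligand made by perivascular and muscle cells, overlapped at -0.81. In the Notch list 10 of 11 were higher, and Nrarp, a feedback target of the pathway, and Notch4, its endothelial receptor, stood apart at 1.18 and 1.04. Of 13 endothelial signals and matrix genes that reach myocytes 11 were higher and 4 did not overlap. Sparcl1, a matricellular protein, was 161, 199, 149.9, 227 and 192 scaled TPM against 61.2 to 117 (median 69.3). Lama4, the laminin chain of vessel basement membrane, differed by 0.73 without overlap. Klf2, the flow-induced transcription factor of endothelium, was 98.7, 101, 133, 220.1 and 136 scaled TPM against 36.8 to 69.8 (median 58.9), and stood apart. Of 20 immediate early genes only Klf2 and its relative Klf6 did not overlap, beside 5.79% of all genes.

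**Figure D3:**
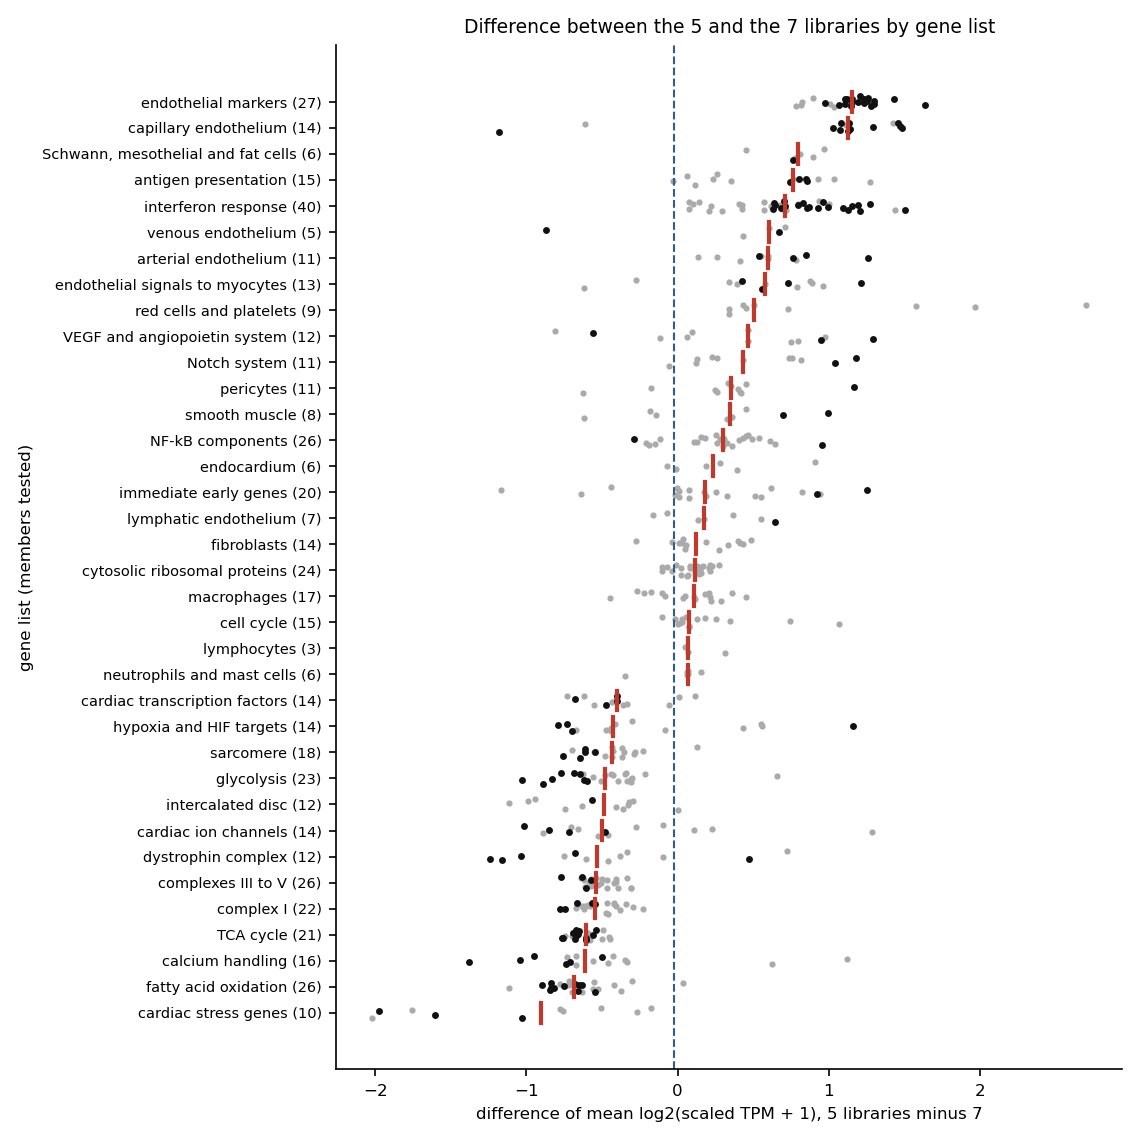
Difference between the 5 and the 7 libraries for each member of the gene lists (horizontal, log2 scale), lists ordered by their median (red bar); black points are genes whose sides do not overlap, grey points overlap, and the dashed line is the median of all genes tested, -0.03. Endothelial and capillary medians lie at 1.16 and 1.13, cardiac stress genes at -0.90. The endothelial list includes the markers that chose the sides.

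Other non-myocyte lists held few genes that separated the sides. Of 11 pericyte genes 9 were higher, but only Rgs5, a regulator of G protein signalling in pericytes, did not overlap, at 45.9, 51.6, 108, 95.3 and 61.0 scaled TPM against 13.3 to 44.5 (median 38.1). Myh11, smooth muscle myosin, and Mylk, its light chain kinase, did not overlap at 1.00 and 0.70, whereas Acta2 overlapped at -0.62. Tested members numbered 14 for fibroblasts, 17 for macrophages, 3 for lymphocytes and 6 for neutrophils and mast cells, and none separated the sides. Their medians were 0.12, 0.11, 0.07 and 0.07, and each turned negative when single libraries were left out. Without scaling these medians were 0.47, 0.36, 0.24 and 0.25, beside 0.28 over all genes tested. The members higher without scaling then numbered 14, 16, 3 and 5. Dcn, decorin of fibroblasts, was 189.6, 93.0, 101, 360.1 and 78.6 scaled TPM in the 5 libraries and from 64.8 to 139.7 (median 118) in the 7. It was high in mdx saline replicate 2 and mdx PB1046 replicate 3, and within the range of the 7 in the other 3. C1qa, a complement chain of macrophages, was 109, 23.2, 36.5, 123 and 36.1 against 30.1 to 143 (median 32.1), and its highest value lay among the 7, in mdx:Utrn+/- saline replicate 1.

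Blood transcripts varied most from library to library. All 9 red cell and platelet genes had higher means in the 5 libraries and none separated the sides. The same sign within all 3 mixed groups was kept by 5 of 9, beside 59.1% of all genes. The mean centred log2 level of the list was -0.15, -1.62, -0.14, 2.20 and 2.64 in the 5 libraries. Ppbp, a platelet chemokine, was 5.45, 1.06, 18.5, 30.4 and 122 scaled TPM in the 5 and from 0.293 to 4.48 (median 1.35) in the 7, so mdx:Utrn+/- PB1046 replicate 2 stood far above the rest. Of the Schwann, mesothelial and fat cell list 6 genes passed the filter and all were higher, Upk1b of the mesothelium without overlap at 0.76. These levels were low, from 2.68 to 3.76 (median 3.19) scaled TPM in the 5 libraries.

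**Figure D4:**
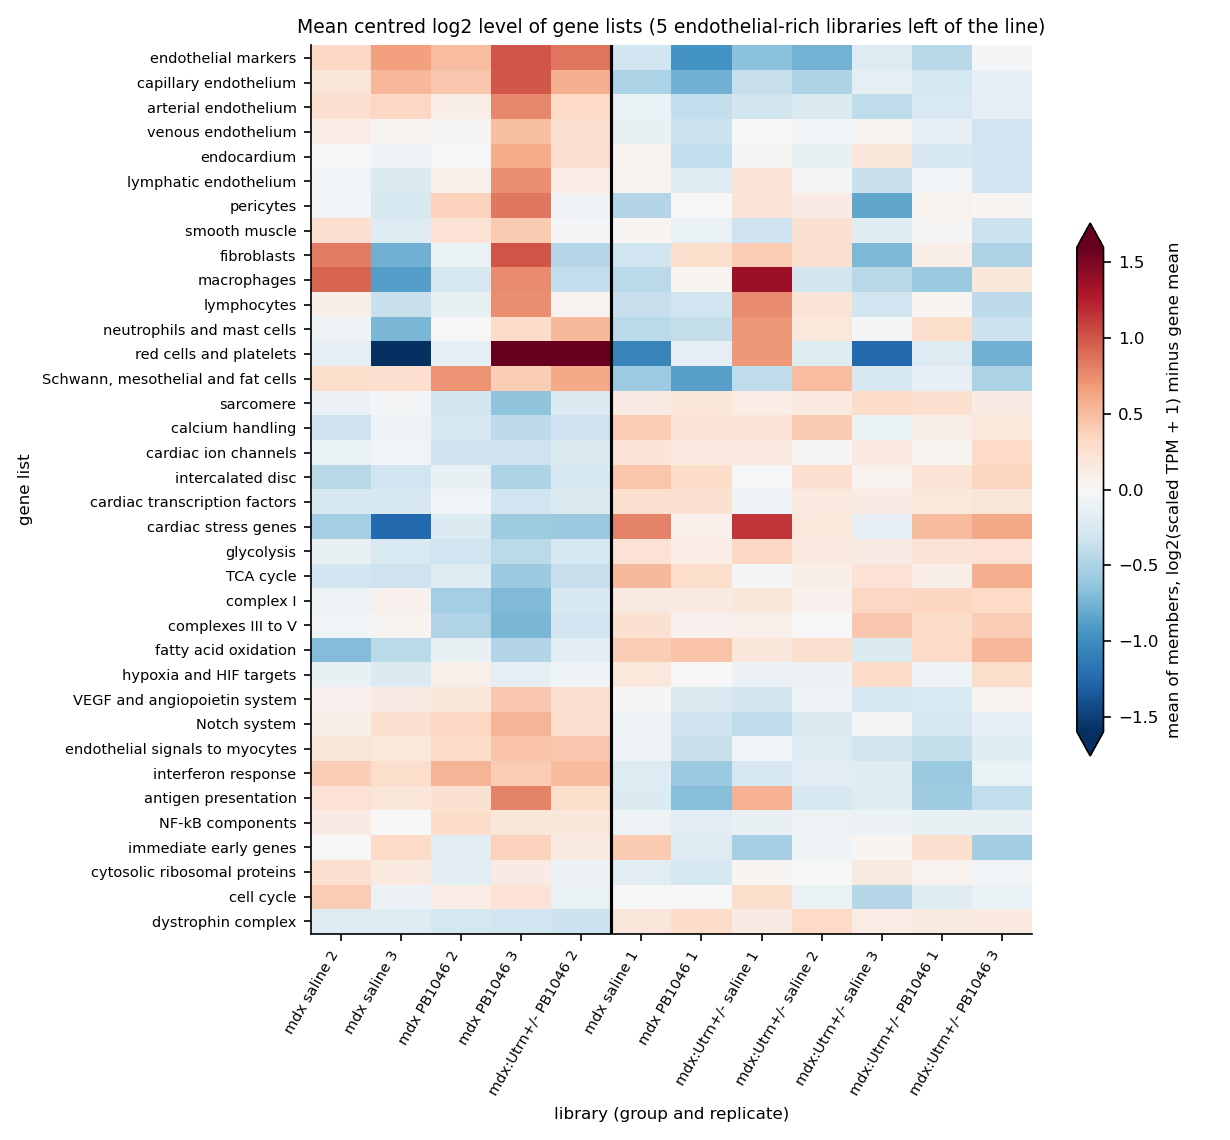
Mean centred log2 level of 36 gene lists (rows) in the 12 libraries (columns), the 5 endothelial-rich libraries left of the black line; red is above and blue below the mean of the list over all libraries, and colours saturate at 1.6. Endothelial and interferon rows change colour at the line, with endothelial scores of 0.34 to 1.00 to its left and -0.95 to -0.02 to its right, whereas fibroblast, macrophage and blood rows do not. The endothelial row includes the markers that chose the sides, so part of its change was fixed by the rule.

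Interferon-stimulated genes followed the endothelial markers closely. All 40 tested were higher in the 5 libraries, 20 without overlap, beside 5.79% of all genes, and 7 stood apart; the median was 0.71 with scaling and 1.03 without. The lowest mean score of the list was 0.28 among the 5 libraries, and the highest among the 7 was -0.10. Gbp3, a guanylate-binding GTPase of cell-autonomous defence (mm10, chr3:142560052-142573212), was 25.7, 35.4, 30.3, 31.1 and 26.4 scaled TPM against 6.16 to 15.9 (median 11.1). Its relatives Gbp2 and Gbp7 differed by 1.19 and 1.16. Ifi203, an interferon-inducible DNA-binding protein, was 37.2, 41.3, 40.2, 39.2 and 49.6 scaled TPM against 13.1 to 22.9 (median 16.0), and Mndal, of the same family, had the narrowest ranges, from 45.3 to 51.5 (median 48.6) against 13.2 to 22.9 (median 16.4). Psmb9, a catalytic subunit of the immunoproteasome, differed by 1.21 without overlap. Members of the Gbp, PYHIN and class I families resemble each other, and the sources used here do not say how shared reads were assigned.

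The promoters of 4 of these genes are shown because the letters of the interferon response element can be read in them. Sequences are from RefSeq on GRCm38.p6, the 110 bases before the annotated start on the gene's strand, with each match in capitals: GAAA, any 2 bases, then GAAA, read on either strand.
Gbp3 (chr3:142559934-142560043, plus strand): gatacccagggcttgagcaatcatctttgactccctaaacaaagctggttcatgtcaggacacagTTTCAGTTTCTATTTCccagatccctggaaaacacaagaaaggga
Ifi203 (chr1:173942493-173942602, minus strand): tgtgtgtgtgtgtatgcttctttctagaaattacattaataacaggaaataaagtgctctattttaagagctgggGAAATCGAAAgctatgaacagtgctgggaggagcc
Gbp2 (chr3:142620553-142620662, plus strand): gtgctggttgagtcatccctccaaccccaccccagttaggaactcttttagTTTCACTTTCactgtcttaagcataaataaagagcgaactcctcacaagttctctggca
Gbp7 (chr3:142530226-142530335, plus strand): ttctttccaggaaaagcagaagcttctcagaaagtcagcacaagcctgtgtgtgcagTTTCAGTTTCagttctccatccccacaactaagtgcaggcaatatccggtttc
The 2 matches in the Gbp3 stretch overlap. Searched on either strand of the 250 bases before the start, the motif was present in 15 of the 27 interferon genes with a promoter in the table (55.6%) and in 290 of 9392 genes tested (3.09%). Among the 16 of these interferon genes whose sides did not overlap, 9 held it. The ETS core CCGGAA was present in 1 of 14 endothelial genes, Kdr, and in 25.0% of all promoters. A match describes letters and not a binding site.

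Antigen presentation and NF-kB genes were shifted less uniformly. Of 15 antigen presentation genes 14 were higher and 4 did not overlap, beside 5.79% of all genes. B2m, the light chain of class I molecules, was 611, 870.4, 869, 931 and 943 scaled TPM against 324 to 590.4 (median 538), so mdx saline replicate 2 lay just above the highest of the 7. Tap1, the peptide transporter, and H2-D1, a class I heavy chain, differed by 0.85 and 0.85 without overlap. Of 26 NF-kB components 21 were higher, with a median of 0.30, or 26 with a median of 0.62 without scaling. Nfkbia, the inhibitor that NF-kB itself induces, was the only higher one without overlap, beside 5.79% of all genes, at 60.6, 46.9, 83.4, 114 and 55.1 scaled TPM against 28.6 to 46.5 (median 33.6). Ikbkg, the regulatory subunit of the IkB kinase, was named after its value was seen. It did not overlap in the other direction, at -0.29, and its difference was 0.04 without scaling. The macrophage list, another source of class I transcripts, summed to between 137 and 945 TPM on the rich side and between 184 and 1026 TPM on the other. The part of endothelial, macrophage or myocyte RNA in the interferon and antigen presentation differences was not tested.

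Cardiac stress genes stood on the opposite side. All 10 had lower means in the 5 libraries, 3 of them standing apart, beside 0.398% of all genes, with a median of -0.90. Without scaling 8 were lower and the median was -0.54. The same sign within all 3 groups that held both sides was kept by 6 of 10, beside 59.1% of all genes. Nppa, atrial natriuretic peptide (mm10, chr4:148000746-148002067), was 1039.6, 397, 436, 1097 and 572 scaled TPM in the 5 libraries and from 1299 to 5951 (median 2395) in the 7. The mean difference of -1.98 was a 3.93-fold lower level, with a pooled SD of 0.77, and it was -2.83, -0.91 and -2.11 within the 3 mixed groups. Nppb, the ventricular natriuretic peptide, was 414, 261, 501, 272 and 453 scaled TPM against 614 to 2199 (median 1055). Myh7, slow beta-myosin of stressed ventricle, was from 73.0 to 97.4 (median 77.0) scaled TPM against 106 to 238 (median 174). In TPM as deposited, the sides of Nppa, Nppb and Myh7 touched or overlapped, since the highest Nppa of the 5 was 1450 TPM and the lowest of the 7 was 1169 TPM. Acta1, skeletal actin re-expressed under load, had the largest mean difference, -2.02, and overlapped.

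**Figure D5:**
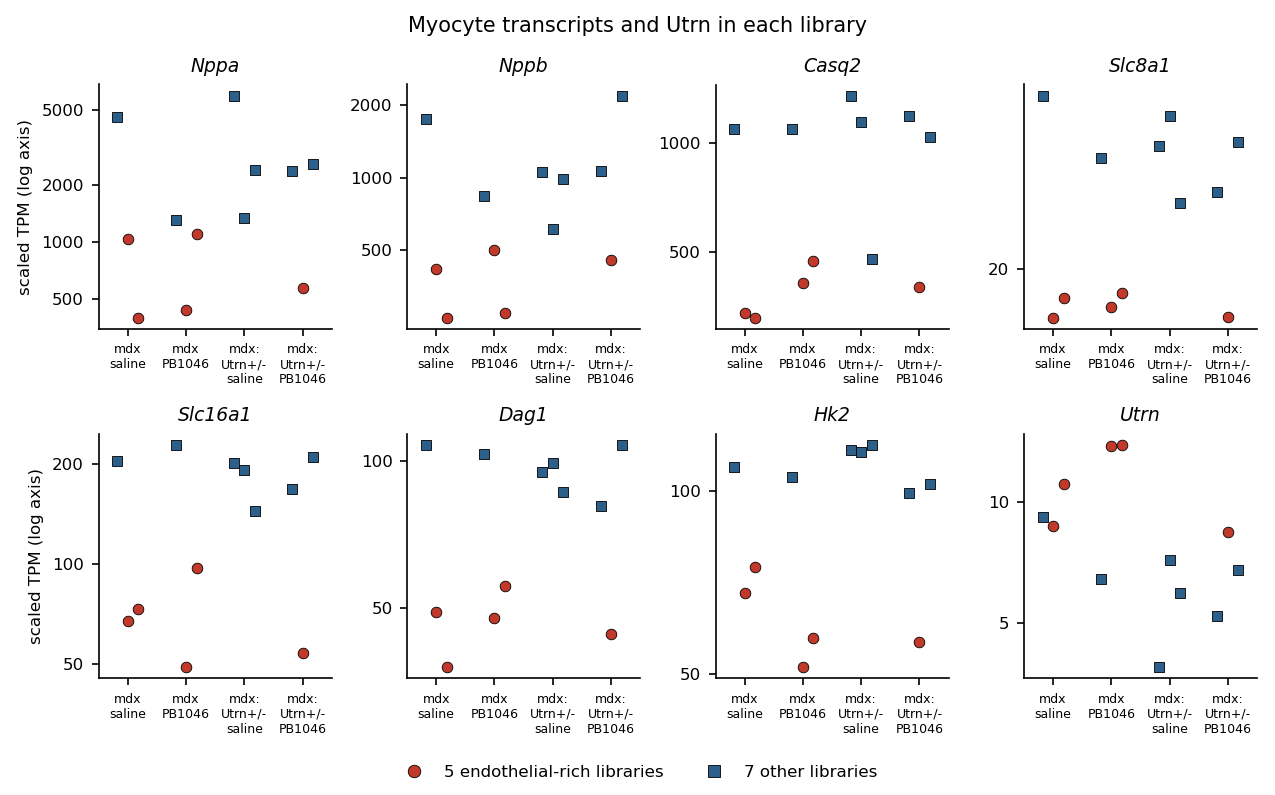
Levels of 7 myocyte transcripts and Utrn in each library, in scaled TPM on log axes, by group; circles are the 5 endothelial-rich libraries and squares the other 7. Nppa, Nppb, Casq2, Slc8a1, Slc16a1, Dag1 and Hk2 are lower in all 5 than in all 7, and Utrn overlaps, mdx saline replicate 1 reaching 9.17.

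Calcium handling genes were lower in 14 of 16 cases, 6 of them without overlap, beside 7.19% of all genes, with a median of -0.61. Without scaling 12 were lower and the median was -0.25. Casq2, the calcium store protein of the sarcoplasmic reticulum (mm10, chr3:102086455-102146512), was 339.7, 330.1, 412, 471 and 402 scaled TPM in the 5 libraries and from 479 to 1345 (median 1091) in the 7. The lowest of the 7 was mdx:Utrn+/- saline replicate 3, at 479 scaled TPM, close to the highest of the 5, and the next lowest was 1036. In TPM as deposited the sides of Casq2 overlapped, and its difference without scaling was -1.01. Slc8a1, the sodium-calcium exchanger, had narrow ranges, 15.8, 17.3, 16.6, 17.8 and 15.8 scaled TPM against 27.4 to 45.9 (median 36.0). Atp2a2, the calcium pump SERCA2, was from 1610.1 to 2130.0 (median 1937) scaled TPM against 3006 to 4227 (median 3600.2), a difference of -0.95, larger than the -0.45 of its level class. Sln, an inhibitor of that pump found mainly in atria, ran against the list with a difference of 1.12 and overlapped, from 2.75 to 17.1 (median 13.4) scaled TPM in the 5.

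Membrane and junction genes of the myocyte lay lower too. Of 14 ion channel genes 11 were lower and 4 did not overlap, beside 7.19% of all genes. Their median was -0.50, or -0.14 without scaling with 9 lower. Kcna5, a potassium channel, had a higher mean in the 5 libraries, 1.29, and overlapped. All 12 intercalated disc genes were lower, with a median of -0.49, whereas without scaling 7 were lower and 5 higher, with a median of -0.14. With scaling, only Nrap among them, an actin-anchoring protein of the disc, did not overlap. This count, 1 of 12, is near the 7.19% of all genes. Gja1, the gap junction protein connexin 43, differed by -0.99 and overlapped at 221 scaled TPM. Of 14 cardiac transcription factors 12 were lower, or 10 without scaling, and 4 did not overlap, beside 7.19% of all genes. Esrrb, an oestrogen-related receptor, and Srf were among these 4, at -0.68 and -0.47.

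Sarcomere genes were set beside other abundant transcripts. Of 18 genes 17 were lower, 5 without overlap, beside 7.19% of all genes, and none standing apart, with a median of -0.44. The 136 genes above 1000 TPM outside the list had a median of -0.45, and the 86 left without the energy metabolism lists too had -0.39. Without scaling 12 sarcomere genes were lower and 6 higher, the median was -0.07, and relative to all genes tested it was -0.41 with scaling and -0.35 without. Actc1, cardiac actin, was 7254, 7099.8, 7746, 6252 and 7092 scaled TPM against 9064 to 15575 (median 11438). Csrp3, the muscle LIM protein, and Actn2, alpha-actinin of the Z-disc, differed by -0.64 and -0.61 without overlap. In TPM as deposited the sides of Actc1 and of Actn2 overlapped.

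Genes of energy metabolism were lower in nearly every case with scaling. Of the 86 genes above 1000 TPM in neither the energy metabolism nor the sarcomere lists, 62 were lower and 24 higher. All 22 complex I genes, all 26 genes of complexes III to V and all 21 TCA cycle genes were lower, with medians of -0.55, -0.54 and -0.61. Without scaling these medians were -0.18, -0.18 and -0.24, and 19, 23 and 21 genes were lower. Those without overlap numbered 5, 4 and 12, beside 7.19% of all genes, and none stood apart. The same sign within all 3 mixed groups was kept by 15 of 22, 16 of 26 and 21 of 21, beside 59.1% of all genes. For fatty acid oxidation 25 of 26 were lower and 11 did not overlap, the median being -0.68, or -0.32 without scaling with 24 lower. Fabp3, the myocyte fatty acid carrier, was 4873, 5269, 6430.2, 4782 and 6046 scaled TPM against 8159 to 13091 (median 9454), opposite to Fabp4 of capillaries. Hadhb, the thiolase subunit of the trifunctional protein, and Cpt2, the inner carnitine transferase, differed by -0.84 and -0.84. For glycolysis 22 of 23 were lower and 8 did not overlap, at a median of -0.48; without scaling 15 were lower and the median was -0.11. Slc2a4, the insulin-responsive glucose transporter GLUT4, stood apart at -1.03, and Hk2, muscle hexokinase, was 67.9, 75.0, 51.4, 57.3 and 56.4 scaled TPM against 99.1 to 119 (median 109). The motif ACGTG, core of the hypoxia response element, was present in 11 of 22 glycolysis promoters and 25.1% of all. Slc16a1, the lactate and ketone transporter MCT1, was 67.1, 73.1, 49.0, 97.1 and 53.9 scaled TPM against 145 to 228 (median 201), 2.86-fold lower in the 5. Of 14 hypoxia genes 10 were lower, or 8 without scaling. The lower ones without overlap were Bnip3, a mitophagy receptor, P4ha1, a collagen prolyl hydroxylase, and Higd1a, of the inner mitochondrial membrane, at -0.79, -0.73 and -0.70. Ndrg1, a stress-induced gene, was higher and stood apart at 1.16. Transcripts encoded in mitochondria were not analysed here. Of 24 cytosolic ribosomal protein genes 19 were higher and none separated the sides, at a median of 0.11, or 0.48 without scaling with 24 higher.

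The dystrophin complex, which ties the cytoskeleton of the myocyte to its matrix, split between its members. Of 14 genes listed 12 passed the filter; 10 were lower and 2 higher, Utrn and Sntb2, a syntrophin named after its value was seen that did not overlap at 0.48, and the median was -0.53, or -0.17 without scaling with 9 lower. Sgcb, beta-sarcoglycan (mm10, chr5:73632749-73647731), was 53.5, 56.9, 34.2, 64.5 and 43.8 scaled TPM in the 5 libraries and from 82.6 to 140.3 (median 132) in the 7, with a pooled SD of 0.31. Its mean difference was -1.24, and the lowest of the 7 lay above all of the 5. Dag1, dystroglycan, also stood apart as lower, at -1.03. Dmd itself, mutated in all animals, overlapped with a difference of -0.10.

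Utrn matters for the labels, since its dose defines the genotype, and it is made by endothelium as well as muscle. It was 8.71, 11.1, 13.7, 13.8 and 8.40 scaled TPM in the 5 libraries in the order given above. Among the 7 it was 9.17 in mdx saline replicate 1, 6.44 in mdx PB1046 replicate 1, and 3.89, 7.16, 5.92, 5.21 and 6.78 in the 5 mdx:Utrn+/- libraries. The mdx PB1046 library among the 7, with both gene copies, lay within the range of the mdx:Utrn+/- libraries. The mdx:Utrn+/- library among the 5 reached 8.40, close to the mdx saline libraries at 9.17, 8.71 and 11.1. In limma's fit by label, Utrn differed by -0.70 (SE 0.29, adjusted p = 0.867) between mdx:Utrn+/- and mdx under saline. With the split as a term the difference was -0.37 (SE 0.27, adjusted p = 0.84). Under PB1046, where both genotypes held both sides, limma gave -0.61 (SE 0.29, adjusted p = 0.999). With the split as a term it gave -0.45 there (SE 0.24, adjusted p = 0.9998). The split was chosen from the same transcript levels, so the fits with that term are descriptions. Vipr1 and Vipr2, which encode the receptors of the peptide that PB1046 mimics, did not pass the filter on low values.

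Genes outside these lists led both directions. Among the higher ones were Apol10b at 1.81, Ctla2b at 1.61, and the GTPases Gimap4 and Gimap6 at 1.56 and 1.47. C1qtnf9, a secreted C1q and TNF relative, and Bcl6b, a transcriptional repressor, stood at 1.46 and 1.47. Among the lower ones, Clu, the secreted chaperone clusterin, was 425, 252, 429, 497 and 437 scaled TPM in the 5 libraries and from 754 to 2173 (median 1248) in the 7. Mgst1, a microsomal glutathione transferase, was from 48.2 to 59.1 (median 55.0) scaled TPM against 109.9 to 175 (median 127). Tnfrsf12a, the receptor for TWEAK, Ptgds, prostaglandin D synthase, and Bdh1, a ketone body dehydrogenase, stood at -1.47, -1.35 and -1.20. Bves, a membrane protein of muscle and epicardium, and Pam, which amidates peptides in myocyte secretory granules, stood at -1.17 and -1.22.

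The split was then set against labels that played no part in it. The 5 libraries held 4 of the 6 mdx libraries and 1 of the 6 mdx:Utrn+/- libraries (Fisher's exact test, two-sided, p = 0.242, adjusted over 4 tests 0.485). They held 3 of 6 libraries given PB1046 and 2 of 6 given saline (p = 1 by the same exact test). Library numbers, whose meaning is not given, averaged 2700 in the 5 libraries and 2649 in the 7 (exact permutation test, two-sided, p = 0.0126, adjusted 0.0505). Recovered reads did not differ beyond their spread (exact permutation p = 0.699, adjusted 0.933). There are 792 possible splits of 12 libraries into 5 and 7, which limits how small the p of such a permutation test can be. Every library numbered replicate 1 in its group lay among the 7.

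The labelled comparisons were fitted with and without the split. By limma, no gene passed an adjusted p of 0.05 in any of the 4 comparisons (0% of 12798), nor with the split as a term. At an unadjusted p under 0.05, 407 genes passed for PB1046 in mdx and 246 for PB1046 in mdx:Utrn+/-. For genotype these counts were 489 under saline and 226 under PB1046. When nothing differs, a share of about 0.05 of the 12798 genes is expected under that threshold, and all 4 counts lay below it. With the split as a term the counts, in the same order, were 756, 475, 604 and 254. The split was chosen from the same transcript levels, so these values are a description and not a test. Limma-voom on the recovered reads gave 442, 210, 465 and 230, again with none after adjustment. Under saline, genotype and side are partly confounded, because mdx:Utrn+/- saline held no endothelial-rich library. There genotype and endothelial content cannot be told apart by these fits. The split term takes its estimate from the 3 groups that held both sides.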

How the data were processed

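Poly-A RNA of 12 preparations of isolated cardiomyocytes was sequenced with a stranded kit from 1.0 µg of RNA of RIN 8 or more, per the labels' protocols. The deposited table is named for raw counts but holds TPM, since each library sums to 1000000; the sources used here name no aligner or counting tool. The genome was mm10 and edgeR was used by the authors, per the submitters' processing notes; the authors' comparison columns were not used. Because the values were TPM and not counts, limma (version 3.58.1, R 4.3.3; trend and robust options, Benjamini-Hochberg adjustment over all genes tested) was run on log2(scaled TPM + 1). Scaling factors were trimmed means of log ratios (30% of ratios and 5% of levels trimmed at each end), computed here. Whole reads per gene were recovered from the steps of the deposited TPM values; 100% came out whole within 0.1, and 7234100 to 25458194 reads per library limit the precision of low genes. Groups came from the sample titles, and the 2 sides from the column names fixed by the rule. Tables were handled with pandas 2.3.3 and exact tests with scipy 1.17.1. The code was tested on simulated data.

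Genes named are the 4 markers, up to 6 members of each of 37 lists by size of difference, the 20 higher and 20 lower genes with the largest difference among those standing apart with the same sign in the 3 mixed groups (predicted genes left out), and Dmd, Utrn, Vipr1, Vipr2 and Rn45s. The sides, lists and rules were chosen with earlier results of these data known. Alternatives were another pseudocount, no scaling, other filters, a fold of 1.5, 9 libraries, mdx alone, leaving out each library, the replicate block, the split as a term and, added after seeing the data, limma-voom on recovered reads. Some results are not reported here.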

Additional observations from a re-analysis of the deposited data

Results flagged for a closer look

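Among 80 sets of 5 or 7 values of list scores and markers, 4 held a library whose gap to its neighbour was large against the range, and chance gives this in about 1 in 20. A score is the mean over list members of log2(scaled TPM + 1) less the gene's own mean. In mdx:Utrn+/- saline replicate 1 the macrophage score was 1.3704, far above the other 6 endothelial-poor libraries. In the same library the antigen presentation score was 0.5569, the highest of the 7, and the score of cardiac transcription factors was -0.0501, the lowest of the 7. In mdx PB1046 replicate 3 the antigen presentation score was 0.7994, far above the other 4 endothelial-rich libraries, and its fibroblast score was 1.01 and its macrophage score 0.76.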

How the results depend on the processing

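The count of genes standing apart depended on scaling, on the fold required and on which libraries entered. It was 200 higher and 51 lower as reported, 585 and 3 without scaling factors, and 545 and 525 at a fold of 1.5. It was 304 and 109 in the 9 libraries of the 3 groups that hold both sides, and 436 and 188 in the mdx libraries alone, where fewer libraries make overlap less likely. Leaving out each library gave 162 to 275 higher genes and 44 to 96 lower genes, with 77 lower genes without mdx PB1046 replicate 3 and 96 without mdx:Utrn+/- saline replicate 3; the cause was not tested. A pseudocount of 0.5 gave 255 and 61, a filter of 5 TPM gave 194 and 50, and no filter gave 200 and 51. Of 36 list medians, 24 moved by more than the spread between libraries without scaling, none changed sign there, and 10 of 432 values that leave out a library changed sign, for the fibroblast, macrophage, lymphocyte and the neutrophil and mast cell lists.

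No gene was called in the 4 labelled comparisons under any setting run. With the replicate block, limma called 0 genes in each. Of 12798 genes, 516, 348, 867 and 331 passed an unadjusted p of 0.05. The order is PB1046 in mdx, PB1046 in mdx:Utrn+/-, genotype under saline and genotype under PB1046. No clear pairing by replicate number was seen. Of 18 pairs with the same number, 5 had deviations from their group means that correlated above 0.1. Among 36 pairs with other numbers 12 did. The median correlations were 0.04 and -0.08. Depth limits the low genes, and none of these libraries has a count of cells.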
